A study of Mus musculus with 3 samples.

Results

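Guanylate-binding proteins are large GTPases made inside cells in response to interferons. They assemble on the vacuoles and membranes of invading microbes, help to break them open, and feed the released material to inflammasomes, and they act together with the smaller immunity-related GTPases. Interferon gamma is the best known inducer of the family, and type I interferons also raise many members. In acute graft-versus-host disease (aGVHD), donor T cells that react to the recipient are known as a source of interferon gamma.

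The family was represented by 8 genes, chosen by symbol: Gbp2, Gbp3, Gbp5 and Gbp7 on chromosome 3, and Gbp4, Gbp8, Gbp9 and Gbp10 on chromosome 5. Each symbol had 1 row among the 27998 genes of the tables. The study profiled marrow niche cells of female CB6F1 mice by droplet single-cell RNA sequencing, with 1 library for each of 3 groups. In the aGVHD group, recipients were irradiated with 2 doses of 4.0 Gy, received 5000000 marrow cells from B6.SJL donors 4 hours later, and also received 60000000 spleen cells from female C57BL/6 mice. The BMT (bone marrow transplantation) group had the same irradiation and marrow but no spleen cells, and the WT (wild type) group was untreated. The sort before sequencing removed dead cells and cells carrying CD45, lineage markers or CD71, which depletes blood cells. How many mice stood behind a library, their age and the day of sampling are not stated in the labels. With 1 library per group no difference has a replicate check, so values carry only 95% counting intervals. These cover counting error and not differences between animals. Intervals of levels and folds treat each UMI of a class as independent, so they also leave out differences between cells.

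After filtering, 5320 aGVHD, 3516 BMT and 6722 WT cells remained, with a median of 6800, 6706.5 and 7122 UMIs (unique molecular identifiers, 1 per captured RNA molecule) per cell. Cells were put into classes by marker genes, since no cell annotation was used, so every class name means "like" that cell type. The stromal class marked by Lepr, Cxcl12 and Adipoq, called LepR stromal cells here, held 381 aGVHD, 572 BMT and 963 WT cells. The endothelial class held 1239, 787 and 518 cells in the same order, and the fibroblast class 316, 251 and 1713 cells. All 6 LepR stromal, all 11 endothelial and all 9 fibroblast markers had UMIs in their class in each library. Cells were chosen by these same markers, so this does not test the class names. All 11 endothelial markers also had UMIs in the LepR stromal cells of each library. Despite the sort, neutrophils (649 aGVHD, 738 BMT and 87 WT cells) and erythroid cells (1146, 76 and 464 cells) were present. Between 5 and 11 cell barcodes were shared by any pair of libraries. RNA floating free in the suspension was read from droplets with at most 100 UMIs, called empty droplets, where the 8 members summed to 767 CPM (UMIs of a gene per 1000000 UMIs of the class or droplets) in the aGVHD library, 584 CPM in the BMT library and 41.0 CPM in the WT library. These values give the make-up of free RNA and not how much of it a cell holds.

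The genes lie in 2 clusters of the mouse genome (GRCm38, GENCODE vM21 annotation). On the plus strand of chromosome 3, Gbp5 spans chr3:142493978-142522344, Gbp7 chr3:142530342-142550149, Gbp3 chr3:142560026-142573209 and Gbp2 chr3:142620602-142638008. On the minus strand of chromosome 5, Gbp8 is annotated from chr5:105014150-105139540, a span that contains Gbp9 (chr5:105077630-105139539) and nearly all of Gbp4 (chr5:105115767-105139586). Only 61 exon bases of Gbp8 coincide with an exon of another member. Gbp10 (chr5:105215699-105239533) is the exception: 46.3% of its exon bases belong also to the gene model Gm43302, a second row that the tables call Gbp6. Of the 951 words of 50 bases in the last 1000 bases of its longest coding transcript, 951 also occur in transcripts of other genes, against at most 29 of 951 for the other 7 members. Reads from the 3′ end of Gbp10 therefore cannot be assigned to it uniquely, and its counts are uncertain throughout.

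The 4 members on chromosome 3 had an entry in the RefSeq promoter table (GRCm38.p6). Their upstream stretches are shown because these genes rose together in the transplanted libraries, and because interferons are known to act on this family through the interferon-stimulated response element (ISRE) and the gamma-activated site (GAS). An ISRE was searched as GAAA, any 2 bases and GAAA on either strand (read on the plus strand as TTTC, any 2 bases and TTTC when it lies on the minus strand) in the 250 bases before each start site, and TTCNNNGAA, which reads alike on both strands, as a GAS. Each of the 4 genes held at least 1 ISRE match. Among 32851 promoters, 2.98% held this ISRE pattern, 7.02% the GAS pattern and 0.332% both. Gbp5 and Gbp7 held 1 ISRE match and 2 GAS matches each, and no GAS match was found in the windows of Gbp2 and Gbp3. Gbp3 had 2 listed start sites, and its ISRE matches, 2 that overlap each other, lay before the upstream start site only. Each line below gives 30 bases of the plus strand, 5′ to 3′, with the matched letters in capitals:
Gbp2, ISRE match, chr3:142620594-142620623: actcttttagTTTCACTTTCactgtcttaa
Gbp3, ISRE match, chr3:142559989-142560018: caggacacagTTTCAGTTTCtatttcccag
Gbp5, ISRE match, chr3:142496759-142496788: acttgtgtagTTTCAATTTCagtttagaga
Gbp7, ISRE match, chr3:142530273-142530302: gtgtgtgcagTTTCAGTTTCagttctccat
Gbp5, GAS match, chr3:142496872-142496901: tggccgttatTTCTCAGAAccaagcacaga
Gbp7, GAS match, chr3:142530239-142530268: aagcagaagcTTCTCAGAAagtcagcacaa
The ISRE matches began 59 bases before the start site in Gbp2, 45 in Gbp3, 165 in Gbp5 and 53 in Gbp7. The GAS letters shown for Gbp5 and Gbp7 are the same, TTCTCAGAA, and begin 52 and 87 bases before the start. The other GAS match of each gene is not shown. These begin 245 bases before the start in Gbp5 and 106 in Gbp7, and their letters differ from each other and from those shown. The Gbp2 window and the GAS window shown for Gbp5 overlap an exon of the GENCODE annotation, whose transcripts start further upstream. A match describes the letters of the window and does not show that a factor binds there.

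The first question was how the family stood in the transplanted mice against untreated mice. In LepR stromal cells, which support blood stem cells with Cxcl12 and Kitl, all 8 members were higher in the BMT library than in the WT library and none was lower. A gene was called when its UMIs summed to at least 50 over both libraries, the CPM differed at least 2-fold and the 95% interval of the ratio excluded 1. By that rule 5.57% of the 10478 genes tested in this class were higher and 2.04% lower. The median log2 fold of the 8 members was 4.44, against 0.13 over all genes tested. At 1000 UMIs per cell, which leaves fewer UMIs, 5 of the members were still called.

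Among the chromosome 3 members in LepR stromal cells, Gbp2, which coats parasite vacuoles in mouse cells, had 1089 CPM in the aGVHD library, 429 CPM in the BMT library and 37.5 CPM in the WT library. Gbp5, known for promoting NLRP3 inflammasome assembly, had 256 CPM in aGVHD, 119 CPM in BMT and 10.2 CPM in WT. For both genes the 3 intervals were apart, with the aGVHD library highest. Gbp7, which has been linked to assembly of the phagocyte oxidase, had 388 CPM in aGVHD, 268 CPM in BMT and 33.8 CPM in WT. Gbp3 had 182 CPM in aGVHD, 149 CPM in BMT and 25.2 CPM in WT cells. The BMT-over-WT folds of these 4 genes ran from 5.91 for Gbp3 (interval 4.96 to 7.08) to 11.7 for Gbp5 (8.96 to 15.5).

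The chromosome 5 members were close to absent from untreated LepR stromal cells, so their folds were larger and less precise. Gbp4, which in mice has been reported to bind IRF7, had 688 CPM in the aGVHD library and 296 CPM in the BMT library, against 1.41 CPM in the WT library, where 963 cells held 8 UMIs. Its BMT-over-WT fold was 210, with an interval of 106.5 to 487.5. The WT level lay below the 4.68 CPM of the empty droplets of that library. Haemoglobin put the free RNA share of WT LepR stromal cells at 10.7% of UMIs. With 8 UMIs, how much of the Gbp4 level is background was not determined. Gbp8 had 71.8 CPM in aGVHD, 71.2 CPM in BMT and 1.76 CPM in WT (10 UMIs), and its BMT-over-WT fold was 40.5 (21.9 to 84.9). Gbp9 had 28.4 CPM in aGVHD, 34.1 CPM in BMT and 0.528 CPM in WT (3 UMIs), a BMT-over-WT ratio of 64.7 with an interval of 21.9 to 316. In the transplanted libraries Gbp9 stood at about the level of the empty droplets, 29.6 CPM in aGVHD and 33.0 CPM in BMT. Haemoglobin put the free RNA share of LepR stromal cells at 2.96% in aGVHD and 1.59% in BMT. Gbp10, with its uncertain reads, had 21.7 CPM in aGVHD, 35.1 CPM in BMT and 0.176 CPM (1 UMI) in WT.

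**Figure D1:**
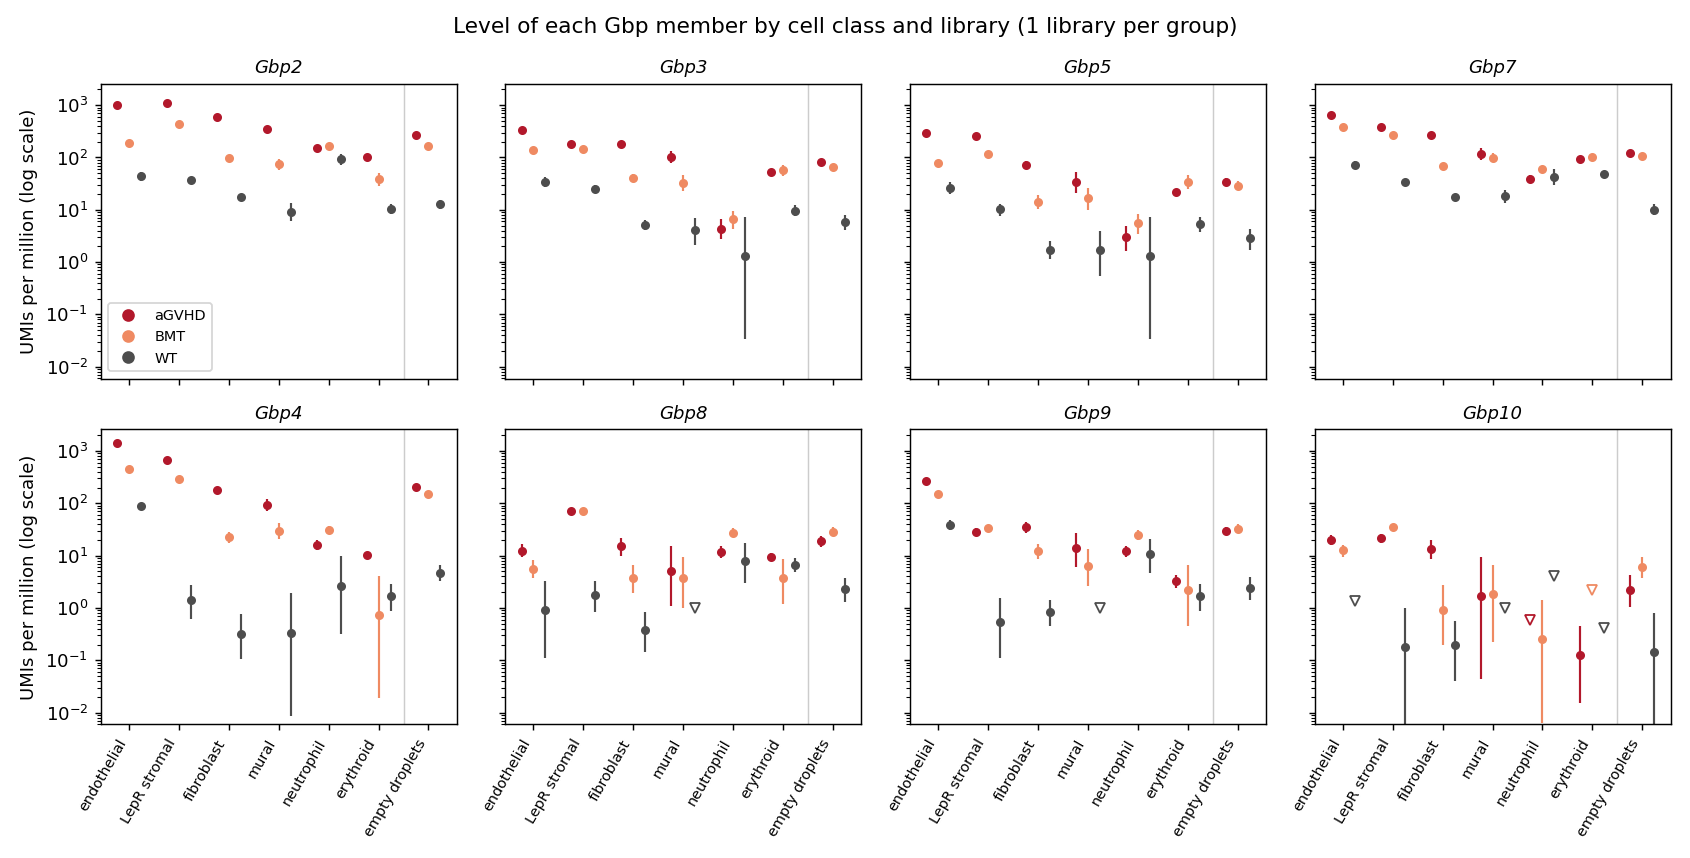
Level of each member in CPM (log axis) in 6 cell classes and in empty droplets, with aGVHD, BMT and WT from left to right in each class. Points are sums over the cells of 1 library with 95% Poisson intervals, and open triangles mark 0 UMIs, drawn at the level of 3 UMIs. Gbp2 and Gbp4 are highest in the aGVHD endothelial and LepR stromal cells, with Gbp4 at 1431 and 688 CPM there, and Gbp4 is at 88.6 CPM in WT endothelial cells but at 1.41 CPM in WT LepR stromal cells.

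Endothelial cells, which line the marrow vessels, held Gbp4 and Gbp9 before any treatment, though 46.3% of WT endothelial cells had no UMI of any member. Gbp4 had 1431 CPM in the aGVHD library, 457 CPM in the BMT library and 88.6 CPM in the WT library, where its level was 18.9 times that of the empty droplets. Gbp9 had 266 CPM in aGVHD, 154 CPM in BMT and 38.5 CPM in WT. In the WT library, endothelial cells had 63.0 times the Gbp4 level of LepR stromal cells (interval 31.4 to 148) and 73.0 times the Gbp9 level (24.1 to 361). Gbp2 did not show this difference, with a WT endothelial-over-LepR ratio of 1.17 (0.912 to 1.49).

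Against the WT library, 7 endothelial members could be tested in the BMT library and these 7 were higher, against 4.9% of 8925 genes called higher in the class and 4.19% called lower. Their folds ran from 2.98 for Gbp5 (2.26 to 3.99) to 5.20 for Gbp7 (4.43 to 6.14) where WT cells held UMIs. Gbp10 had no UMI in the 518 WT cells and 58 UMIs in the 787 BMT cells, which gave at least 9.35-fold against a floor of 3 UMIs for the WT library. Gbp8 fell short of the UMI minimum, with 26 UMIs in BMT and 2 in WT. Gbp4 was 5.16-fold higher in BMT endothelial cells (4.45 to 5.99), a smaller fold than in LepR stromal cells, whose WT level was near 0. The BMT endothelial level of Gbp4 was 1.54 times that of LepR stromal cells (1.46 to 1.64), and the aGVHD one 2.08 times (1.99 to 2.17), so the classes stood nearer to each other in the transplanted libraries.

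The second question was what the added spleen cells changed. This comparison uses the BMT library again, so its folds and those of BMT over WT are not independent. In endothelial cells 5 of 8 members were higher in the aGVHD library than in the BMT library and none was lower, against 2.64% of 9284 genes called higher and 4.94% lower. The median log2 fold of the 8 was 1.23, against -0.04 over all genes tested. Gbp2 had 4245 UMIs in aGVHD (1000 CPM) and 874 UMIs in BMT (189 CPM), a fold of 5.29 (4.91 to 5.69). Gbp5 differed 3.80-fold (3.38 to 4.29), Gbp4 3.13-fold (2.98 to 3.29) and Gbp3 2.48-fold (2.26 to 2.73).

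Gbp8 was the fifth, at 12.5 CPM in aGVHD (53 UMIs) and 5.63 CPM in BMT (26 UMIs), 2.22-fold with an interval of 1.36 to 3.70. Both levels were under those of the empty droplets, 18.7 CPM in aGVHD and 28.7 CPM in BMT, and at a common depth of 1000 UMIs per cell the difference was gone (log2 fold -0.003). Gbp7, Gbp9 and Gbp10 stayed under 2-fold, at 1.68 (1.58 to 1.79), 1.73 (1.57 to 1.90) and 1.58 (1.12 to 2.24), though their intervals lay above 1.

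In LepR stromal cells 3 of 8 members were higher in aGVHD than in BMT, against 2.58% of 10337 genes, and none was lower by the same rule, against 6.42%. These were Gbp2 at 2.54-fold (2.43 to 2.65), Gbp4 at 2.33-fold (2.21 to 2.45) and Gbp5 at 2.15-fold (1.97 to 2.34). The median log2 fold of the 8 was 0.41, and -0.13 over all genes tested. Gbp7 stood at 1.45-fold (1.36 to 1.54) and Gbp3 at 1.22-fold (1.12 to 1.34). Gbp8 had nearly the same level in both, with a ratio of 1.008 and an interval of 0.879 to 1.16. Gbp9 had a ratio of 0.832 (0.671 to 1.03) and Gbp10 of 0.619 (0.488 to 0.779). The members therefore did not move as a block between the transplanted libraries: in LepR stromal cells Gbp2, Gbp4 and Gbp5 were higher with spleen cells while Gbp8 and Gbp9 had intervals that include 1.

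The aGVHD-over-BMT fold of Gbp2 was larger in endothelial than in LepR stromal cells, with intervals that do not overlap, and the same held for Gbp3, Gbp4 and Gbp5. The difference between the folds was not tested, since each class comes from 1 library per group. The Gbp2 levels of both classes stood nearer to each other in aGVHD. In the BMT library endothelial cells had 0.441 times the Gbp2 level of LepR stromal cells (0.409 to 0.476), whereas in the aGVHD library the ratio was 0.919 (0.882 to 0.957).

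**Figure D2:**
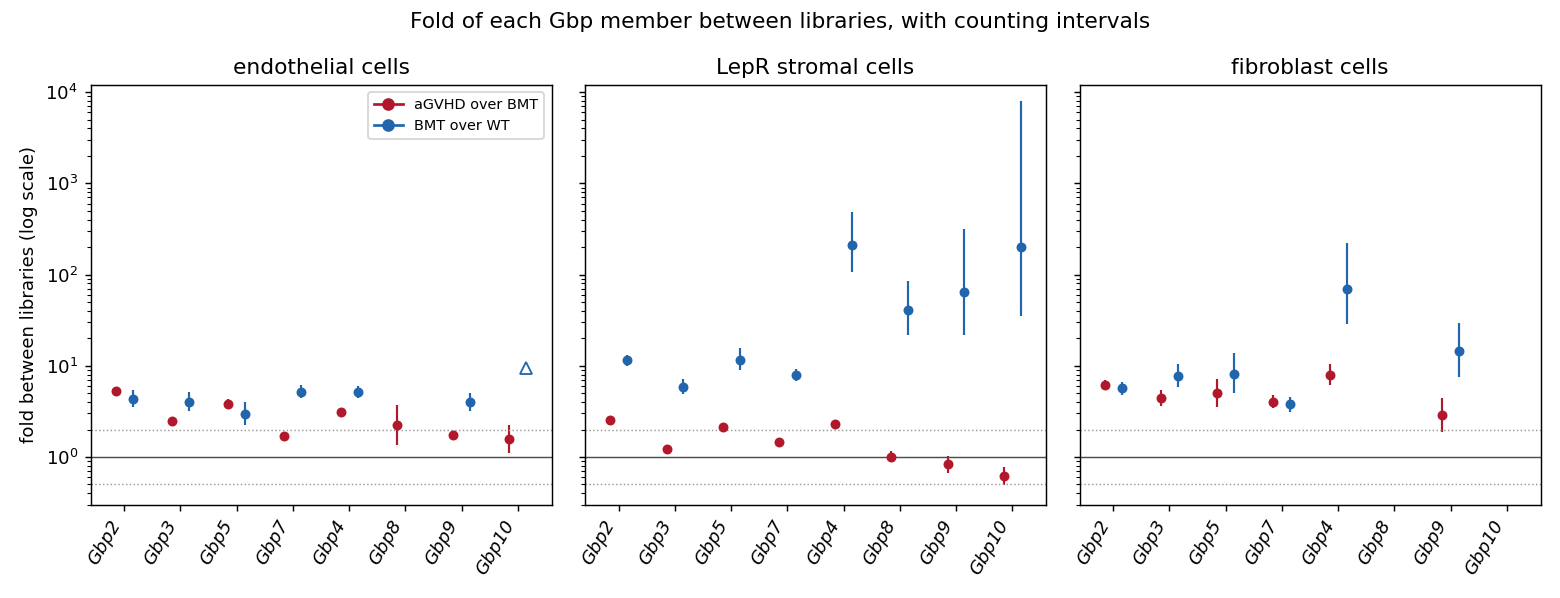
Fold of each member (log axis) for aGVHD over BMT (red, left) and BMT over WT (blue, right) in endothelial, LepR stromal and fibroblast cells, shown where at least 50 UMIs were summed over both libraries. Bars are 95% counting intervals, and dotted lines mark 2-fold in either direction. The open triangle marks a fold with a library at 0 UMIs, which was set to the floor of 3 UMIs. LepR stromal folds for BMT over WT run from 5.91 to 210, while those for aGVHD over BMT run from 0.619 to 2.54.

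Fibroblasts, with Pi16, Dpt and Clec3b among the class markers, had 6 members that could be tested. The class did not look alike in each library. Among the genes listed as leading it over other cells, 6 were class markers in BMT and in WT but 3 in aGVHD. Pi16 and Dpt were listed in BMT and WT and not in aGVHD, where Apod, C3 and Ccl11 were. The part of a changed make-up of the class in the folds was not tested. Gbp2 had 606 CPM in the aGVHD library, 97.9 CPM in the BMT library and 17.2 CPM in the WT library, which is 6.19-fold for aGVHD over BMT (5.46 to 7.04). Gbp4 had 181 CPM in aGVHD, 22.6 CPM in BMT and 0.322 CPM (5 UMIs) in WT. Of the 6 members with enough UMIs, 6 were higher in aGVHD than in BMT, against 2.83% of 8158 genes (4.71% lower), and 6 were higher in BMT than in WT, against 3.38% of 10939 genes (3.13% lower). At 1000 UMIs per cell 0 were called for BMT over WT, and the BMT levels of these 6 members were 0.153 to 0.625 times those of the empty droplets. Gbp8 and Gbp10 could not be tested: Gbp8 had 27, 12 and 6 UMIs and Gbp10 24, 3 and 3 UMIs in aGVHD, BMT and WT. The BMT levels of fibroblasts were low relative to free RNA, since the summed members had 259 CPM in these cells and 584 CPM in empty droplets. Haemoglobin put the free RNA share of BMT fibroblasts at 17.3% of UMIs. After subtracting that share the log2 fold of Gbp2 for BMT over WT was 2.23 in place of 2.51. For Gbp4 the subtraction gave no BMT-over-WT value, as the BMT fibroblast level was 0.153 times that of the empty droplets. That is under the 17.3% share, so the share may be too high.

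Mural cells, the smooth muscle and pericyte class, were few, with 87 aGVHD, 108 BMT and 518 WT cells. Gbp2 had 349 CPM in aGVHD, 74.1 CPM in BMT and 9.16 CPM in WT, and its aGVHD-over-BMT fold was 4.71 (3.62 to 6.17). In that comparison 3 of the 4 members tested were higher, Gbp2, Gbp3 and Gbp4, against 2.1% of genes (6.35% lower), and for BMT over WT both members tested, Gbp2 and Gbp7, were higher, against 5.05% (4.4% lower). Thinning left 0 called in either comparison. The aGVHD level of Gbp2 was 1.29 times that of the empty droplets. Haemoglobin put the free RNA share of mural cells at 11.2% of UMIs in aGVHD, 0.230% in BMT and 14.2% in WT. How much of the Gbp2 level is free RNA was not determined.

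Neutrophils and erythroid cells, the blood cells that passed the sort, were read as well. Neutrophils had 154.5 CPM of Gbp2 in the aGVHD library, 165.5 CPM in the BMT library and 92.2 CPM in the WT library, a narrow range beside that of the niche cells. Against BMT, 0 of the 5 members tested were higher in aGVHD and 2 were lower, Gbp8 at a ratio of 0.434 (0.311 to 0.601) and Gbp9 at 0.486 (0.347 to 0.676). In this class 14.6% of genes were called lower, 3.09% were called higher and the median log2 fold of all genes was -0.30. With median-of-ratios scaling neither gene was called lower. For BMT over WT 3 of 5 neutrophil members were higher, Gbp4, Gbp8 and Gbp9, against 16.7% of genes (10.3% lower). Subtracting free RNA left 1 of these 3 called and thinning 0. In the BMT library haemoglobin put the free RNA share of neutrophils at 28.9% of UMIs. That share is too high for the members, since Gbp3 and Gbp4 stood at 0.0994 and 0.209 times the empty droplets there. The subtraction therefore cannot decide whether the 3 BMT-over-WT calls hold. Gbp2 stood at 1.001 times the level of the empty droplets in those cells, and the other 7 members stood below it.

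In erythroid cells the summed members had 291 CPM in aGVHD, 237 CPM in BMT and 83.0 CPM in WT. In the aGVHD and BMT libraries this was 0.379 and 0.405 times the level of the empty droplets. Gbp4 was at 10.3 CPM in aGVHD, at 1 UMI in the 76 BMT cells and at 1.67 CPM in WT, although the empty droplets held 209 CPM of it in aGVHD and 148 CPM in BMT. Among erythroid genes 26.3% were called higher for BMT over WT, with 4 of the 5 members tested among them. That share was the highest background among the comparisons made, and 6.8% were called lower. Thinning left 0 members called for BMT over WT. For aGVHD over BMT 3 of 7 erythroid members were higher, Gbp2, Gbp4 and Gbp8, against 2.72% of genes (11.4% lower), each below the level of the empty droplets, and thinning left 1 called.

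Against the WT library directly, the aGVHD library had all 8 members higher in LepR stromal cells (6.25% of genes higher, 6.52% lower) and in endothelial cells (5.95% higher, 7.05% lower). Gbp4 was 489-fold higher in aGVHD LepR stromal cells (248 to 1134) and 16.15-fold higher in aGVHD endothelial cells (14.0 to 18.7). Among fibroblasts 6 of 6 tested members were higher (4.13% of genes higher, 6.55% lower), and among mural cells 4 of 4 (3.31% higher, 5.88% lower). Thinning left 5 called in LepR stromal and 0 in mural cells. Neutrophils had 1 of 5 higher, Gbp4 (4.44% higher, 11.3% lower). That call rested on 82 UMIs in aGVHD and 2 in WT, the aGVHD level was 0.0776 times that of the empty droplets, and 0 were called after subtracting free RNA or thinning. Erythroid cells had 4 of 7 higher (13.3% higher, 2.58% lower). No member had enough UMIs in T and NK cells (3.47% higher, 2.44% lower).

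In the remaining classes few members could be tested. For BMT over WT, 3 of 3 tested members were higher in osteolineage cells (2.39% of genes higher, 4.75% lower) and 2 of 2 in B lineage cells (9.61% higher, 5.97% lower). The 3 osteolineage members, Gbp2, Gbp3 and Gbp7, stood at 0.291, 0.216 and 0.493 times the level of the empty droplets in BMT, and none was called after thinning to 1000 UMIs per cell. Haemoglobin put the free RNA share of BMT osteolineage cells at 0.377% of UMIs. In B lineage cells haemoglobin put the free RNA share at 93.4% of the BMT UMIs and 0.831% of the WT UMIs. The BMT share is too high for the members, whose sum stood at 0.378 times the empty droplets there, with Gbp8 at 0 UMIs. The 2 members called there, Gbp7 and Gbp4, stood at 0.642 and 0.259 times the empty droplets in BMT. Subtracting free RNA turned both round (log2 folds of -1.048 and -0.689) and left 0 called. That subtraction rests on the 93.4% share, so it cannot decide whether these 2 calls hold. Tendon fibroblasts had none tested (2.82% higher, 3.67% lower). For aGVHD over BMT, 2 of 4 members were higher in megakaryocytes (2.44% higher, 4.13% lower). These were Gbp2 and Gbp4, at 0.148 and 0.151 times the empty droplets in aGVHD, with Gbp4 at 0 UMIs in BMT, and thinning left 0 called. None of the members tested in these classes was lower.

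The share of cells with a UMI was read after thinning each cell to 1000 UMIs, since depth differed between the classes and libraries. Any of the 8 members was seen in 91.6% of endothelial cells in the aGVHD library (89.9 to 93.1%, exact binomial interval), 65.3% in the BMT library and 25.9% in the WT library. The LepR stromal shares were 82.2% in aGVHD (77.9 to 85.9%), 62.9% in BMT and 9.45% in WT. Without thinning the LepR stromal shares were 99.5%, 94.9% and 38.2%, at median depths of 12076, 14533.5 and 5719 UMIs in aGVHD, BMT and WT. The unthinned endothelial shares were 97.2%, 90.9% and 53.7%, at median depths of 2729, 4541 and 3667.5 UMIs in aGVHD, BMT and WT. Erythroid cells, taken as the class to compare with, gave 17.6% in aGVHD, 9.21% in BMT and 5.39% in WT at the common depth. Unthinned they gave 60.4%, 69.7% and 41.4% at median depths of 11558, 19127 and 11469 UMIs. They were not free of the members. Their summed level was 83.0 CPM in WT, 2.03 times the empty droplets, and 4 of 7 members were called higher for aGVHD over WT. Fibroblasts had 51.6% in aGVHD, but 13.6% in BMT and 3.97% in WT lay near the erythroid shares, which does not show that the members were absent. The neutrophil shares were 24.2% in aGVHD, 24.1% in BMT and 19.5% in WT, with overlapping intervals.

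Several members were found together in the same cells. At 1000 UMIs, 47.7% of aGVHD endothelial cells (44.9 to 50.5%) held 3 or more of the 8, against 12.5% in BMT and 0.772% in WT. The LepR stromal shares were 27.6% in aGVHD, 13.5% in BMT and 0.104% in WT. The summed level of the 8 members per endothelial cell had a 10th percentile of 958 CPM, a median of 3735 CPM and a 90th percentile of 8211 CPM in aGVHD. The BMT endothelial median was 1016 CPM and the WT median 148 CPM. The LepR stromal median was 2266 CPM in aGVHD, 953 CPM in BMT and 0 CPM in WT, where 61.8% of cells had no UMI of the family. Fibroblasts were less even in aGVHD, where 23.1% of cells had none and the 90th percentile was 3541 CPM.

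**Figure D3:**
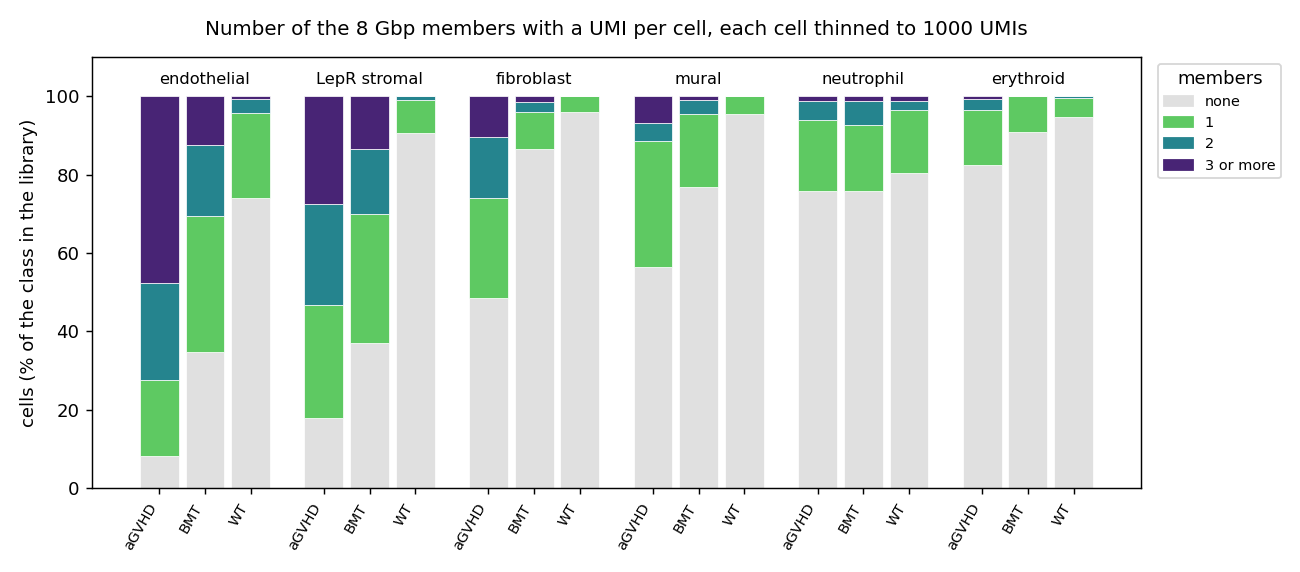
Share of cells (%) with none, 1, 2 or at least 3 of the 8 members, each cell thinned to 1000 UMIs, in 6 classes with aGVHD, BMT and WT from left to right. The share with 3 or more is 47.7% in aGVHD endothelial and 27.6% in aGVHD LepR stromal cells, while 24.2%, 24.1% and 19.5% of neutrophils hold any member in aGVHD, BMT and WT.

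Gbp8 and Gbp9, neighbours on chromosome 5, were divided between the classes. Gbp9 made up 95.5% of the UMIs of this pair in aGVHD endothelial cells (94.2 to 96.6%), 96.5% in BMT and 97.7% in WT. Among LepR stromal cells Gbp9 was 28.3% of the pair in aGVHD (24.3 to 32.7%) and 32.4% in BMT (29.3 to 35.7%), and the 13 WT UMIs were too few to divide. The split thus differed by class and was alike across the libraries that could be read. Within the aGVHD library the Gbp9 level of endothelial cells was 9.35 times that of LepR stromal cells (7.80 to 11.3) and their Gbp8 level 0.174 times (0.128 to 0.233). In BMT these ratios were 4.497 for Gbp9 (3.91 to 5.19) and 0.079 for Gbp8 (0.051 to 0.117). Empty droplets held 61.3% Gbp9 in aGVHD, 53.5% in BMT and 51.5% in WT, between the 2 classes. Fibroblasts had 69.7% in aGVHD and 76.5% in BMT, and neutrophils 50.4% in aGVHD and 47.6% in BMT.

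**Figure D4:**
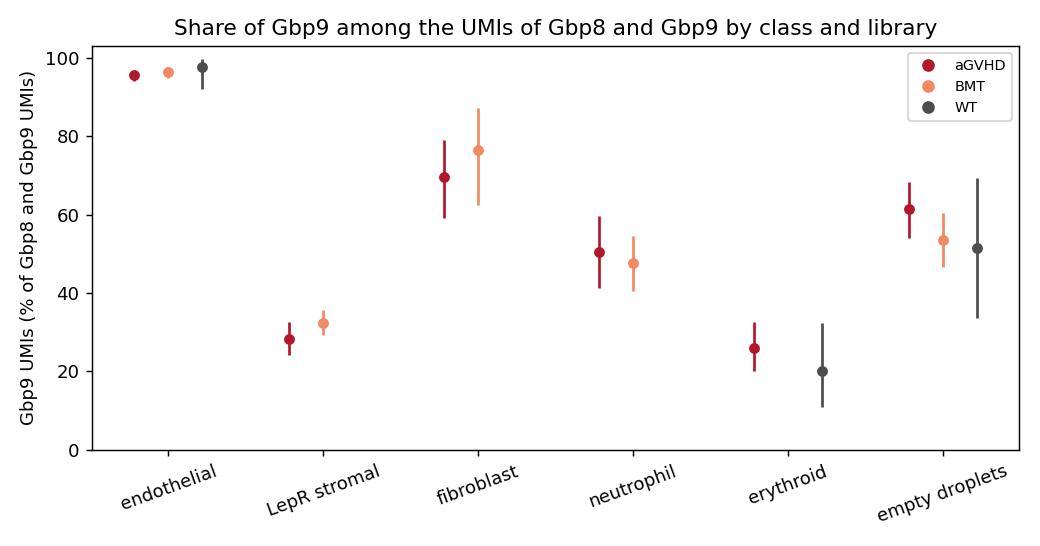
Gbp9 UMIs as a share (%) of the UMIs of Gbp8 and Gbp9 together, by class and library, with exact 95% binomial intervals, shown where the pair had at least 20 UMIs. Endothelial cells lie at 95.5 to 97.7% and LepR stromal cells at 28.3 to 32.4%, apart from each other in each library that could be read.

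Cells with Selp, Vwf, Ackr1 or Sele and without Gpihbp1 and Cd36 numbered 4 in aGVHD, 10 in BMT and 76 in WT. The endothelial comparison was therefore repeated in cells with Gpihbp1 or Cd36 and without Selp, Vwf, Ackr1 and Sele, a choice made after the data were seen. This subset held 1080 aGVHD, 638 BMT and 237 WT cells. Gbp2 had 1029 CPM in aGVHD, 182 CPM in BMT and 42.0 CPM in WT in these cells. The aGVHD-over-BMT folds were 5.65 for Gbp2 (5.19 to 6.16), 3.84 for Gbp5, 3.101 for Gbp4 and 2.57 for Gbp3, and the BMT-over-WT fold of Gbp4 was 5.08 (4.05 to 6.45). The aGVHD-over-BMT folds of these 4 genes thus differed little between the subset and all endothelial cells. For BMT over WT, Gbp3 was lower in the subset, at 3.17 (2.26 to 4.58) against 4.03 (3.17 to 5.18). Gbp5 was higher there, at 3.35 (2.12 to 5.56) against 2.98 (2.26 to 3.99), and Gbp2 was at 4.34 against 4.31. The intervals of Gbp3 and Gbp5 overlapped between the subset and all endothelial cells.

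Markers of T and NK cells and of phagocytes were measured in the same classes. The 10 T and NK cell markers summed to 17.6 CPM in LepR stromal cells of aGVHD, 6.95 CPM in BMT and 2.46 CPM in WT, with 9, 7 and 6 of the 10 detected, and empty droplets held 115, 79.9 and 72.3 CPM. The 9 monocyte and macrophage markers summed to 61.1 CPM in aGVHD, 41.1 CPM in BMT and 15.1 CPM in WT in that class, rising with the members, with 7, 8 and 8 of the 9 detected. In endothelial cells the T and NK markers summed to 3.53 CPM in aGVHD, 5.63 CPM in BMT and 12.1 CPM in WT, with 4, 3 and 6 of the 10 detected. The monocyte and macrophage markers summed there to 3.77, 44.8 and 3.58 CPM, with 6, 6 and 5 of the 9 detected. The 12 neutrophil markers summed to 388 CPM in aGVHD, 210 CPM in BMT and 127 CPM in WT endothelial cells, with 12, 12 and 8 of them detected. In LepR stromal cells they summed to 272 CPM in aGVHD, 155 CPM in BMT and 135 CPM in WT, with 11, 11 and 10 detected, and empty droplets held 27280, 27600 and 10320 CPM. The 5 plasmacytoid dendritic markers summed to 5.18, 2.60 and 0.448 CPM in endothelial cells and to 2.15, 1.49 and 0.176 CPM in LepR stromal cells of aGVHD, BMT and WT, with 1 to 3 of the 5 detected. In both classes the neutrophil and plasmacytoid dendritic sums were thus in the same order as the summed members. The part of admixed cells of these types in the member values of both classes was not tested.

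Gbp2b, the gene next to Gbp2 whose human counterpart is GBP1, was not among the members but followed Gbp2. It had 465 CPM in aGVHD, 204 CPM in BMT and 13.2 CPM in WT LepR stromal cells. In endothelial cells it had 455 CPM in aGVHD, 90.5 CPM in BMT and 30.9 CPM in WT, and its aGVHD-over-BMT fold of 5.03 (4.52 to 5.60) was close to the 5.29 of Gbp2. The Gbp6 row with the most UMIs had 73.8 CPM in aGVHD, 95.7 CPM in BMT and 3.69 CPM in WT LepR stromal cells, with the same doubt on shared reads as Gbp10.

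The immunity-related GTPases, which share the family's targets inside cells, were given by a list of 9 genes, 8 of them in the tables. For BMT over WT, 8 of 8 were higher in LepR stromal cells (5.57% of all genes tested) and 8 of 8 in endothelial cells (4.9%). Iigp1, the most abundant of them by UMIs, had 2615 CPM in aGVHD, 2344 CPM in BMT and 184 CPM in WT LepR stromal cells. For aGVHD over BMT, 0 of 8 were called in LepR stromal cells (2.58% of genes higher, 6.42% lower), with a median log2 fold of 0.34. In endothelial cells 3 of 8 were higher, against 2.64% of genes. These were Igtp at 4.23-fold (3.88 to 4.62), Irgm1 at 2.28-fold (2.07 to 2.51) and Irgm2, named after its value was seen, at 2.28-fold (1.97 to 2.63). Iigp1 was at 1.52-fold (1.46 to 1.60) in endothelial cells and at 1.12-fold (1.09 to 1.14) in LepR stromal cells.

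The 8 type I interferon effectors, genes of the antiviral state, had more calls for BMT over WT than for aGVHD over BMT in endothelial and LepR stromal cells. For BMT over WT, 8 of 8 were higher in LepR stromal cells (5.57% of genes) and 7 of 7 tested in endothelial cells (4.9%). Irf7 had 276 CPM in BMT and 24.8 CPM in WT LepR stromal cells. For aGVHD over BMT, endothelial cells had 0 of 7 higher and 0 of 7 lower, with a median log2 fold of -0.02. Isg15 had 190 CPM in aGVHD and 193 CPM in BMT endothelial cells, a ratio of 0.985 (0.894 to 1.08), and Rsad2 190 CPM in aGVHD and 170 CPM in BMT. The LepR stromal class had none higher and 3 of 8 lower in aGVHD, against 6.42% of genes called lower. These 3, named after their values were seen, were Mx1 at a ratio of 0.261 (0.147 to 0.436), Rsad2 at 0.480 (0.370 to 0.618) and Ifit3 at 0.4998 (0.437 to 0.570). Fibroblasts differed, with 6 of 7 effectors higher in aGVHD than in BMT, against 2.83% of genes.

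Genes of the interferon gamma receptor and its transcription factors were read beside the family. Nlrc5, which drives MHC class I genes, was 3.103-fold higher in BMT than WT LepR stromal cells (2.42 to 4.02), where 5.57% of genes were called higher. Socs1 was not called there, at 1.19-fold (1.02 to 1.40). Irf1 had 330 CPM in aGVHD, 396 CPM in BMT and 355 CPM in WT in that class, and Ifngr1 258 CPM in aGVHD, 256 CPM in BMT and 166 CPM in WT. Endothelial cells of BMT had higher Irf1 (2.20-fold, 1.997 to 2.44), Socs1 (3.81-fold, 2.77 to 5.37) and Nlrc5 (4.35-fold, 2.45 to 8.42) than those of WT, against 4.9% of genes. Ifngr1 (1.34-fold), Ifngr2 (1.085-fold), Jak1 (1.10-fold) and Jak2 (1.15-fold) were not called. The aGVHD-over-BMT fold of Nlrc5 in endothelial cells was 2.92 (2.36 to 3.64), against 2.64% of genes called higher. Irf1, at 1.275-fold, and Socs1, at 1.65-fold, were not called in that comparison. Nlrc5, Socs1, Ifngr2, Jak1 and Jak2 were named after their values were seen.

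The prenylation enzymes, which attach the lipid anchor that some Gbp proteins carry, had 0 of 6 members higher or lower for BMT over WT in LepR stromal cells and 0 of 5 in endothelial cells. They had 0 of 6 called for aGVHD over BMT in LepR stromal cells. In endothelial cells 1 of 6 was higher, Fntb at 2.14-fold (1.33 to 3.50), against 2.64% of genes. Among inflammasome genes 2 of the 4 tested were higher for BMT over WT in LepR stromal cells, against 5.57% of genes. These were Casp1 at 3.36-fold (2.82 to 4.04) and Pycard at 3.31-fold (2.81 to 3.93). In endothelial cells 0 of 4 were higher, against 4.9%. For aGVHD over BMT 0 of 4 were called in LepR stromal cells. In endothelial cells 1 of 4 was higher, Gsdmd at 2.09-fold (1.69 to 2.61), against 2.64% of genes. The genes named from these 2 lists were chosen after their values were seen. Interferon transcripts were rare. Ifng had 75 UMIs in the cells of the aGVHD library, 5 in BMT and 38 in WT, of which 69, 4 and 38 lay in the 63, 23 and 53 T and NK cells. Ifnb1 had 9 UMIs in aGVHD, 3 in BMT and 1 in WT. The sort removes CD45-positive cells, so these counts do not measure the interferon of the marrow.

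Across 32 sums of a class in a library, each with at least 50 cells, the summed Gbp level was compared with 10982 other genes by Pearson's r of log2(CPM + 10). The points share 3 libraries, so r is a description. Among the genes most like the family were Dtx3l (0.938), H2-T23 (0.928), Rnf213 (0.921), Parp14 (0.916), Herc6 (0.905), Igtp (0.895) and Irgm1 (0.891). Within the family each member was set against the sum of the other 7. Gbp7 had the highest r at 0.952 and Gbp8 the lowest at 0.661.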

How the data were processed

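Single-cell counts of marrow niche cells were deposited as UMI counts per gene and droplet, 1 library each for aGVHD, BMT and WT. The files' headers name Cell Ranger 3.1.0, and the submitters' processing notes name Cell Ranger, Seurat and the build mm10; the labels do not state how reads shared by overlapping genes were counted. The library totals were 67439098 (aGVHD), 44219063 (BMT) and 86575425 (WT) UMIs over 6794880 barcodes each. A barcode counted as a cell from 1000 UMIs and 500 genes upward, with a mitochondrial share below 10%. Scrublet scores, through scanpy, removed the highest 0.8% per 1000 cells as likely doublets (248, 105 and 407 cells in that order).

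A cell joined a class when the markers of that class passed a share of its UMIs common to all libraries, the highest share in any library's empty droplets and at least 1000 CPM, with at least 5 UMIs of at least 2 markers, and led any other class 2-fold. These limits were set after the data were seen. Cells of no class made up 15.3% of aGVHD, 9.10% of BMT and 8.42% of WT cells, and cells of several classes 1.50%, 1.99% and 5.67%. UMIs were summed per class, and Poisson, Clopper-Pearson and conditional ratio intervals at 95% cover counting error only. A library at 0 UMIs was set to a floor of 3 UMIs. Classes needed 50 cells in both libraries. On simulated counts for LepR stromal cells, BMT over WT, the call rule found 100 of 100 genes changed 3-fold among 10255 unchanged genes tested, of which it called 7. For endothelial cells it called 18 of 8722 unchanged genes in that comparison. The simulated counts had Poisson error only, without differences between cells or animals, and changed genes had at least 100 expected UMIs. They therefore cannot give the rate of false calls in the real libraries. The members and gene lists were chosen with earlier results of these data known. Named genes were all members, up to 4 genes per list with the most UMIs in a class, and those stated as named after their values were seen. Analysis used Python 3.11.15, scanpy 1.11.5 and scipy 1.17.1. Results for 1 gene of the lists are not reported here.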

Additional observations from a re-analysis of the deposited data

Results flagged for a closer look

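Gbp8 and Gbp9 moved in opposite directions in different classes for aGVHD over BMT, and these differences between classes were not tested. Gbp8 was 2.22-fold higher in endothelial cells (53 UMIs in aGVHD, 26 in BMT) and 2.54-fold higher in erythroid cells (149 UMIs in aGVHD, 5 in BMT), but had a ratio of 0.434 in neutrophils (60 UMIs in aGVHD, 108 in BMT). In each of these 3 classes the Gbp8 level lay under that of the empty droplets in the aGVHD and BMT libraries. Gbp9 was 2.88-fold higher in fibroblasts (62 UMIs in aGVHD, 39 in BMT) and had a ratio of 0.486 in neutrophils (61 UMIs in aGVHD, 98 in BMT).

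Schwann cells, too few for the comparisons, carried a high level of Gbp2. It was 2377 CPM in the 44 aGVHD cells (2147 to 2625) and 285 CPM in the 34 BMT cells (205 to 385), against 271 CPM and 165 CPM in the empty droplets of the same libraries. The 6 WT cells held no Gbp2 UMI. Summed over the 8 members, the aGVHD Schwann cells had 4558 CPM and the BMT ones 780 CPM.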

How the results depend on the processing

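No paired analysis was possible because each group has 1 library. Counts of members called were repeated across 10 alternatives fixed with the plan and 1 added later. Of 454 counts, 417 stayed within 1.5 times the main count and 37 did not. A count has no direction, so a turn could not occur. The main count of lower members was 0 in each comparison but neutrophils for aGVHD over BMT. A 0 that stayed at 0 is among the 417, so that total overstates how steady the calls are. For 118 folds of single members the same settings gave 1174 values, of which 1063 stayed, 105 moved (56 of them under thinning) and 6 turned round. Settings that left no value for a result were not counted. Leaving out a library was not possible, and differences between animals are not measured. The LepR stromal, endothelial and fibroblast counts moved by over 1.5 times only under thinning and the 1.5-fold limit. Thinning to 1000 UMIs leaves fewer UMIs by construction. It gave 5 members higher in LepR stromal cells for BMT over WT and 5 for aGVHD over WT, and 0 higher for BMT over WT in fibroblasts, osteolineage, mural, B lineage, neutrophil and erythroid cells. It also gave 0 higher for aGVHD over BMT in mural cells and megakaryocytes, 1 in erythroid cells with 1 lower in neutrophils, and 0 for aGVHD over WT in mural cells and neutrophils. It turned round Gbp8 in endothelial cells for aGVHD over BMT (log2 fold -0.003), Gbp7 in erythroid cells (-1.477) and Gbp4 in B lineage cells (-0.153) for BMT over WT. With a 1.5-fold limit 8 members were higher in endothelial cells for aGVHD over BMT, with 1 lower in LepR stromal, 4 lower in neutrophils and 1 lower in erythroid cells, and 2 were higher in neutrophils for aGVHD over WT. With free RNA subtracted, neutrophils had 1 member higher for BMT over WT, 1 lower for aGVHD over BMT and 0 higher for aGVHD over WT, and B lineage cells had 0. Gbp4 in neutrophils (-1.342) and Gbp7 (-1.048) and Gbp4 (-0.689) in B lineage cells turned round for BMT over WT. These turns rest on haemoglobin shares that are too high for the members in BMT neutrophils and BMT B lineage cells. With at least 20 UMIs the BMT-over-WT counts were 5 in mural, 6 in B lineage and 2 in tendon fibroblast cells, and T and NK cells had 1 for aGVHD over WT. With doublets kept, mural cells had 4 for BMT over WT, megakaryocytes 4 higher and neutrophils 1 lower for aGVHD over BMT. The neutrophil count lower was 1 with the stricter gate, and 0 under median-of-ratios scaling and under the mean of per-cell CPM. That scaling gave 1 lower in erythroid cells for BMT over WT, and the per-cell mean 1 higher in B lineage cells and 7 higher in erythroid cells for aGVHD over WT. Under 5% mitochondrial UMIs B lineage cells had 1. The cause of these changes was not tested where the setting itself does not give it.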
